A study of Mus musculus with 46 samples.

Results

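The red cell, globin and haem synthesis genes were followed through 46 mouse RNA-seq libraries. The list names 33 genes by function, and 32 of them have a row in a table of 46264 genes. Ahsp, the chaperone of free alpha globin, was not analysed here. The list holds 4 adult globin genes, 9 genes of haem synthesis and mitochondrial transport, 9 of the membrane and its skeleton, 4 regulators and 6 enzymes or maturation genes. The libraries come from a study of intravenous immunoglobulin (IVIG, pooled antibody given into a vein) in mice with a blistering disease of the mucous membranes, pemphigoid driven by antibodies against laminin 332. As labelled, there were 5 blood libraries with IVIG and 5 with phosphate-buffered saline (PBS), and 5 and 5 of neutrophils, 3 and 5 of monocytes, and 3 and 3 of skin. A separate experiment labelled Ics had 4 libraries, titled m1 to m4, at each of 0 h (unstimulated), 3 h and 6 h (stimulated). The labels neither expand Ics nor name its cells, and they give no strain, age, genotype or dose. The protocol names neutrophils and monocytes derived from bone marrow, or whole blood, and messenger RNA selected by its poly(A) tail. The labels do not say whether the libraries of a group came from separate animals or cultures, so p-values measure only the spread between these libraries.

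Red cells carry oxygen on haemoglobin, a tetramer of alpha and beta globin chains, each holding a haem group. Precursors in the bone marrow make haem through a chain of enzymes that starts and ends in the mitochondrion. Under the factors GATA1, KLF1 and TAL1 they fill with haemoglobin and then expel the nucleus. The reticulocyte that leaves the marrow makes no new RNA and loses what it holds within days. Whole blood drawn without globin depletion is known for libraries dominated by haemoglobin transcripts. The membrane is held by a skeleton of spectrin, ankyrin and protein 4.1, tied to the anion exchanger band 3.

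In 10 libraries the 4 globin genes Hba-a1, Hba-a2, Hbb-bs and Hbb-bt held 89.2% to 98.3% of all estimated counts. In the other 36 libraries they held 0.000678% to 0.577%. No library lay between these ranges, so the limit of 10% divided them without a close case. These groups were drawn by globin level, and what follows on them is a description with no test. The widest 95% Wilson interval of a share was 0.0229 percentage points in the globin-rich libraries, and it covers counting error only. Library totals ran from 18965434 to 43176793 estimated counts. After removal of the globin genes, the globin-rich libraries kept 595507 to 3454574.

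The globin-rich libraries did not follow the labels. Of the 10, 6 were labelled blood, 2 neutrophil and 2 skin, with 5 from each treatment. Among the 34 blood, cell and skin libraries, the marker genes matched the labelled tissue in 25 and went against it in 9. Besides the 10 globin-rich libraries, 10 had over 10000 CPM (counts scaled to a library total of 1000000) of the neutrophil genes S100a8 and S100a9, 6 had over 100 CPM of the keratin genes Krt5 and Krt14, and 8 had none of these marks. Of the 8 unmarked libraries, 7 were labelled monocyte and 1 blood. A monocyte label counted as a match where these marks were absent, so 7 of the 25 matches used no monocyte gene. A list of 6 monocyte markers summed to 728 to 6152 CPM in the unmarked and 1529 to 2722 CPM in the neutrophil-marked libraries, which overlap. Laying the same names over the columns in another sort order, with the separator before digits, moves 29 names. By the same rule, marker and label then match in 34 of 34. In that order all 10 globin-rich libraries would be blood, 5 with IVIG and 5 with PBS, and no Ics library would move. The labels were kept as deposited for every main comparison, and the other order was added as an alternative after the data were seen.

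**Figure D1:**
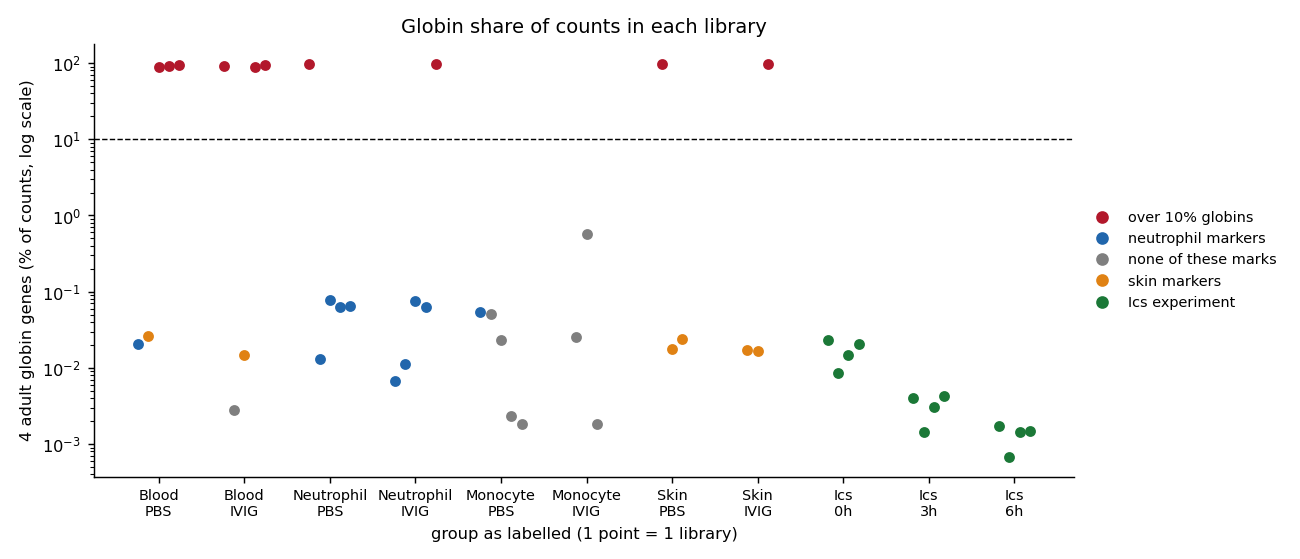
Share of all counts in the 4 adult globin genes (%, log axis) in each of 46 libraries, grouped by label and coloured by marker class; the dashed line is at 10%. The 10 globin-rich libraries sit at 89.2% or more under the labels blood, neutrophil and skin, and the Ics libraries are lower at 3 h and 6 h than at 0 h.

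Within the globin-rich libraries the 4 globins varied to different degrees. Hbb-bs, the major adult beta globin of this haplotype (chromosome 7, 103826534 to 103828096, minus strand, GRCm38), ranged from 338572 to 590201 CPM with a median of 403609.9. Hbb-bt, its neighbour on the same strand (103812524 to 103813996), ranged from 21256 to 61664 CPM. That left Hbb-bt with 3.74% to 15.4% of the beta globin counts. Hba-a2 (chromosome 11, 32296489 to 32297298, plus strand) was the steadiest, at 216937 to 294533 CPM, a span of 1.36 times. Hba-a1 (chromosome 11, 32283511 to 32284465, plus strand) spanned 4.55 times, from 69637 to 316869 CPM. The lowest Hba-a1 value and the highest Hbb-bs value were in the same library, labelled neutrophil IVIG replicate 5, which also had the highest globin share.

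The split between paralogs is uncertain. The reading frames of Hbb-bs and Hbb-bt are the same at 443 of 444 bases, and those of Hba-a1 and Hba-a2 at 428 of 429 (99.8% each, on the longest reading frame of the GENCODE transcripts). Reads from the coding part can be shared out between the copies by the quantifier, so the sums are firmer than the parts. The ratio of alpha to beta counts was 0.589 to 1.34 in the globin-rich libraries, with a median of 1.05. The minor globin genes showed low counts in the globin-rich libraries. Hbq1a, a theta globin, was at 11 to 29.3 CPM there and at most 0.179 CPM in any other library. Hbb-bh1, an embryonic beta-like globin, was at 0.714 to 3.62 CPM against at most 0.225 CPM elsewhere. The alpha-like Hba-x was at 0.0412 to 0.268 CPM in the globin-rich libraries, with a median of 0.145 CPM. Its median was 0 CPM in the Ics, neutrophil-marked, skin-marked and unmarked libraries. Its highest values were 0.62 CPM in neutrophil-marked and 1.74 CPM in unmarked libraries, so these ranges overlap that of the globin-rich libraries. Whether reads of the adult globins were shared out to these genes was not tested.

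The stretches before the start sites of 3 globin genes, Alas2 and Epb42 are shown because erythroid genes are known for elements bound by GATA1 and KLF1 there. They are from RefSeq on GRCm38.p6, 5′ to 3′ on the gene's strand, and each holds the 250 bases before the RefSeq start. The gene spans in this text are from GENCODE and begin further upstream, so each window lies partly inside its gene's span. Capitals mark matches on either strand to AGATAA or its relative TGATAA, to the KLF-type pattern CCNCNCCC, to the box CCAAT or to the box TATAAA, and neighbouring matches run together. The windows are chr7:103827929-103828178 (minus) for Hbb-bs, chr7:103813924-103814173 (minus) for Hbb-bt, chr11:32283422-32283671 (plus) for Hba-a1, chrX:150547167-150547416 (plus) for Alas2 and chr2:121036878-121037127 (minus) for Epb42.
Hbb-bs: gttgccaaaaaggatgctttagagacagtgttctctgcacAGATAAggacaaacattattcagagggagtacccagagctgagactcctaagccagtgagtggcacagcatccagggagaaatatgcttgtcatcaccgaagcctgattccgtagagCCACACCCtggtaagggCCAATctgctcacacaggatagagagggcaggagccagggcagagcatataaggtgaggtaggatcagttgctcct
Hbb-bt: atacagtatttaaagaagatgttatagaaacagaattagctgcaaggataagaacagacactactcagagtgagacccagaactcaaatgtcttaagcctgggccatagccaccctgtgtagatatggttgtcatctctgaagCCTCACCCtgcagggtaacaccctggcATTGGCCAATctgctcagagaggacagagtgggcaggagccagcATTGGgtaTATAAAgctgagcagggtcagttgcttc
Hba-a1: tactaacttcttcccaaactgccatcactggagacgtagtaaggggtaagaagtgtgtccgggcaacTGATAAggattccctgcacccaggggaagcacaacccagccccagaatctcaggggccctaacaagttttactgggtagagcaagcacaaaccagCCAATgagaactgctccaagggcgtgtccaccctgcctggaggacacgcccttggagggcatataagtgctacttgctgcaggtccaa
Alas2: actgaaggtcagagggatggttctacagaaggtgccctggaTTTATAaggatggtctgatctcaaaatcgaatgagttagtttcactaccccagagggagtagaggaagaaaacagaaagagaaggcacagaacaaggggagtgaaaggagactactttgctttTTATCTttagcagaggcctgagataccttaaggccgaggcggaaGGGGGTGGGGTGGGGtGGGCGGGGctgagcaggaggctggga
Epb42: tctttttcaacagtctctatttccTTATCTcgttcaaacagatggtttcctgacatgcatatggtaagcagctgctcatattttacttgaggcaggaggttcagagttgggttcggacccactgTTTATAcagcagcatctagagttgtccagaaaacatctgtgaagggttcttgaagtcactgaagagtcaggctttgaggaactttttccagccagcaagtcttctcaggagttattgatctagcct

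Hbb-bs held AGATAA from base -210 to -205, a CCNCNCCC match from -93 to -86 and CCAAT from -76 to -72. Hbb-bt held no AGATAA or TGATAA in its window, but it held the KLF-type and CCAAT matches and TATAAA from -28 to -23. Hba-a1 held TGATAA from -183 to -178. The table of promoters matched 26 of the 32 genes, with 33 promoters. AGATAA or TGATAA was in 16 of these 33 promoters (48.5%) and in 16.6% of all 32851 promoters. CCAAT was in 57.6% of the 33 against 33.8% of all. The pattern CCNCNCCC was in 48.5% against 45.9%, and TATAAA in 12.1% against 12.4%. These matches describe the letters and do not show binding.

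Because globins fill the libraries, levels there are given as CPM of all counts and as non-globin CPM, for which the 4 globins are taken out of the library total. Read as non-globin CPM, 14 of the 32 genes were higher in all 10 globin-rich libraries than in all 10 neutrophil-marked ones, against 7.31% of the 20991 genes with at least 10 counts over these libraries. In the other direction 2 of 32 were lower in all, against 14.3% of those genes, and 16 overlapped. The 4 globins among the 14 were used to draw the groups. As CPM of all counts the same reading gave 7 above, 10 below and 15 overlapping (background 0.777% above and 63.7% below), so these counts depend on the denominator. Against the 12 Ics libraries 22 genes were above, 0 below and 10 overlapped (background 12% above and 18.1% below). Against the skin-marked libraries 23 were above, 1 below and 8 overlapped (6.37% above and 32.5% below).

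**Figure D2:**
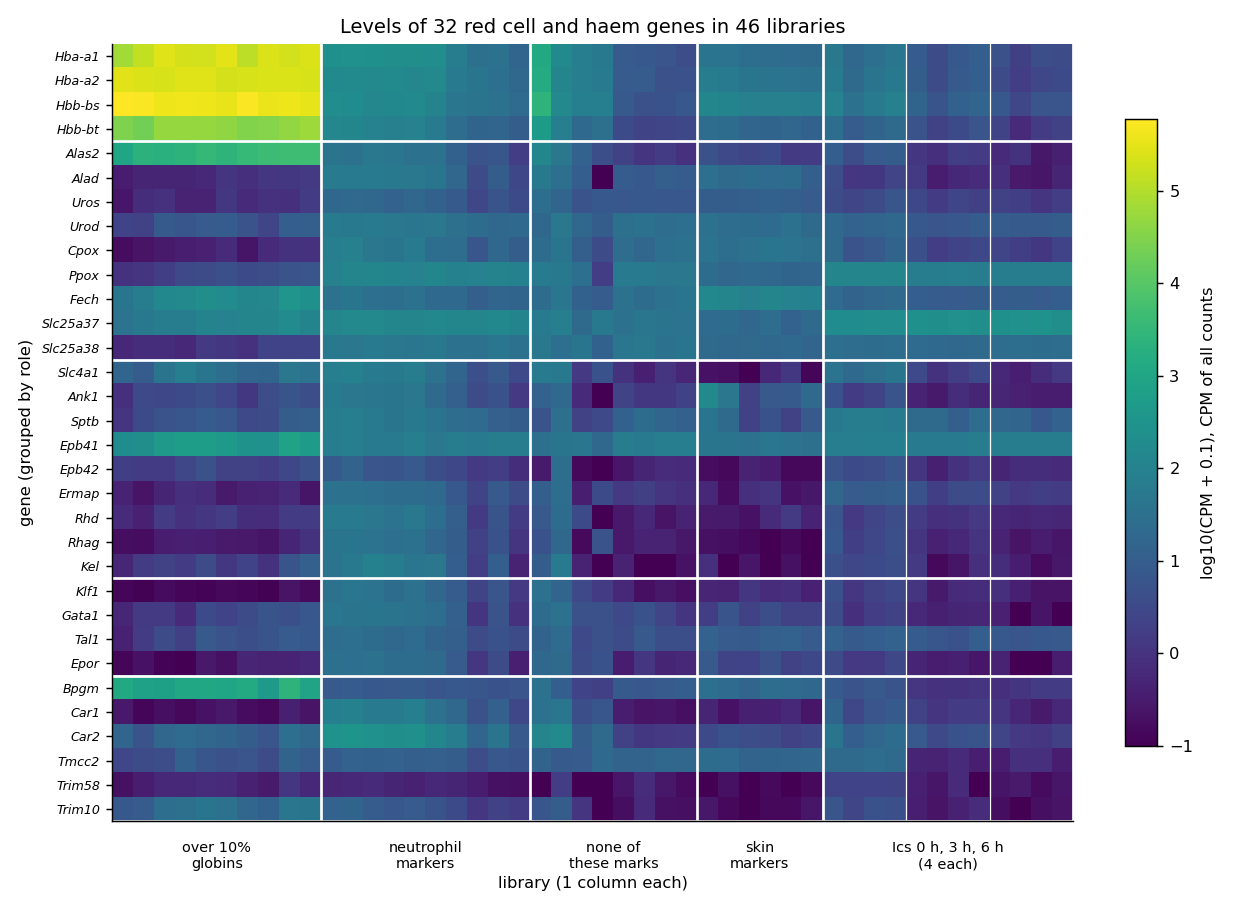
Levels of 32 genes (rows, grouped by role from globins at the top to enzymes at the bottom) in 46 libraries (columns), as log10 of CPM of all counts plus 0.1. The 10 globin-rich libraries on the left are bright for globins, Alas2, Fech, Epb41 and Bpgm and dark for Klf1, Rhag, Ermap, Cpox and Car1, and the neutrophil-marked libraries beside them show Klf1, Rhag and Car1.

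Among the haem genes, those of the opening and closing steps and mitoferrin 1 were higher in all globin-rich libraries than in all neutrophil-marked ones. Alas2, the erythroid form of the enzyme that starts haem synthesis (chromosome X, 150547375 to 150570638, plus strand), was at 991 to 4676 CPM of all counts, median 2926. Its highest value in any of the 36 other libraries was 132 CPM, in the library labelled monocyte IVIG replicate 2. As non-globin CPM Alas2 varied little between the 10 libraries, from 38384 to 69912, a span of 1.82 times. Fech, ferrochelatase, which inserts iron into the ring, was at 1672 to 4044 non-globin CPM against at most 42.4 in the neutrophil-marked libraries. Slc25a37, mitoferrin 1, which brings iron into the mitochondrion, was at 1028 to 2151 against 116 to 154.

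Of the middle enzymes, Alad, Uros, Urod and Cpox overlapped the neutrophil-marked libraries and Ppox lay below them, while Alad, Urod and Ppox were each above all libraries of another class. Alad, porphobilinogen synthase, was at 7.55 to 14.7 non-globin CPM, and it overlapped the neutrophil-marked range of 2.91 to 65.6 while lying above every Ics library. Uros and Cpox, a synthase and an oxidase of the middle steps, were at 5.73 to 22.7 and 2 to 8.12. Urod, the decarboxylase, was at 31.3 to 225, with a median of 116 against 47.4 in the neutrophil-marked libraries, and it was above every Ics library. Ppox, protoporphyrinogen oxidase, was lower in all 10 globin-rich libraries (30.6 to 79.1) than in all neutrophil-marked ones (87.9 to 131), and higher than in all skin-marked ones (15 to 24.5). Slc25a38, the mitochondrial glycine carrier, was likewise lower, at 11.2 to 29.3 against 34.1 to 58.2.

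The membrane genes also divided against the neutrophil-marked libraries. Epb41, protein 4.1 (chromosome 4, 131923413 to 132075321), was at 3364 to 15376 non-globin CPM and above every other library. Slc4a1, the anion exchanger band 3 (chromosome 11, 102348824 to 102366203), was at 193 to 2024 against 3.05 to 95.1 in the neutrophil-marked libraries. Epb42, protein 4.2, which ties band 3 to the skeleton, was at 20.1 to 98.1 against 0.672 to 14.4. Ank1, erythroid ankyrin, and Sptb, beta spectrin, were at 15.3 to 93.5 and 40.6 to 168, and both overlapped the neutrophil-marked range. The Rhesus genes Rhd and Rhag were at 7.92 to 39.7 and 1.69 to 7.96, and the blood group genes Ermap and Kel at 1.36 to 22.1 and 11.1 to 112. These 4 also overlapped the neutrophil-marked range.

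Of the regulators, Klf1 was close to absent from the globin-rich libraries, and Epor was low there. Klf1, the factor that drives adult beta globin (chromosome 8, 84901928 to 84905291), was at 0.00727 to 0.121 CPM of all counts, and 2 of the 10 libraries had no count after rounding. Divided by non-globin counts it was at 0.146 to 1.94 non-globin CPM. That range overlaps the neutrophil-marked (1.27 to 45.6), skin-marked (0.312 to 1.15) and unmarked (0.0927 to 33.4) ranges on the same scale. Epor, the erythropoietin receptor, was at 0 to 6.11 on that scale, which overlaps the neutrophil-marked range of 0.289 to 32.6 and the skin-marked range of 2.13 to 7.78. Gata1 was at 14.6 to 68.6 and Tal1 at 19.1 to 127, both overlapping the neutrophil-marked range.

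The enzymes and maturation genes divided again. Bpgm, bisphosphoglycerate mutase, which makes the small molecule that lowers the oxygen affinity of haemoglobin (chromosome 6, 34476207 to 34505613), was at 469 to 2547 CPM of all counts. No other library was above 33.8 CPM. Trim10, a ring finger protein of late erythroid cells, was at 153 to 837 non-globin CPM against 1.08 to 15.3 in the neutrophil-marked libraries. Trim58, a ubiquitin ligase of late erythroblasts, was at 2.72 to 12.4 against 0.0944 to 0.563, and Tmcc2 at 41.8 to 327 against 3.96 to 13.3. The carbonic anhydrases overlapped the neutrophil-marked range. Car1 was at 0.484 to 11.2 against 2.64 to 97.2, and Car2 at 77.1 to 957 against 7.81 to 329.

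Markers of other blood cells in the globin-rich libraries were measured beside these genes. The 9 neutrophil markers summed to 184 to 1733 non-globin CPM (7.08 to 57.7 CPM of all counts), and the neutrophil precursor genes Elane, Mpo and Ctsg rounded to 0 counts in all 10. The platelet list summed to 3137 to 11551 non-globin CPM, the lymphocyte list to 281 to 2183, the monocyte list to 200.4 to 564 and the proliferation list to 20.7 to 45.8. Their part in the levels above was not tested. In bulk RNA fewer cells of a type and less RNA per cell cannot be told apart.

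The counts of each gene were also set against the globin counts of the same library. Klf1 counts per 1000 globin counts were 7.51e-06 to 0.000135 in the globin-rich libraries. They were 18.2 to 59.5 in the neutrophil-marked and 8.27 to 42.5 in the Ics libraries. For Car2 the ratio was 0.00539 to 0.0332 in the globin-rich and 117 to 429 in the neutrophil-marked libraries. For Alas2 the gap was much smaller, 1.01 to 5.23 against 24.2 to 79.9. Globin counts are part of every such ratio and globin level drew the groups, so these values are a description of composition.

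**Figure D3:**
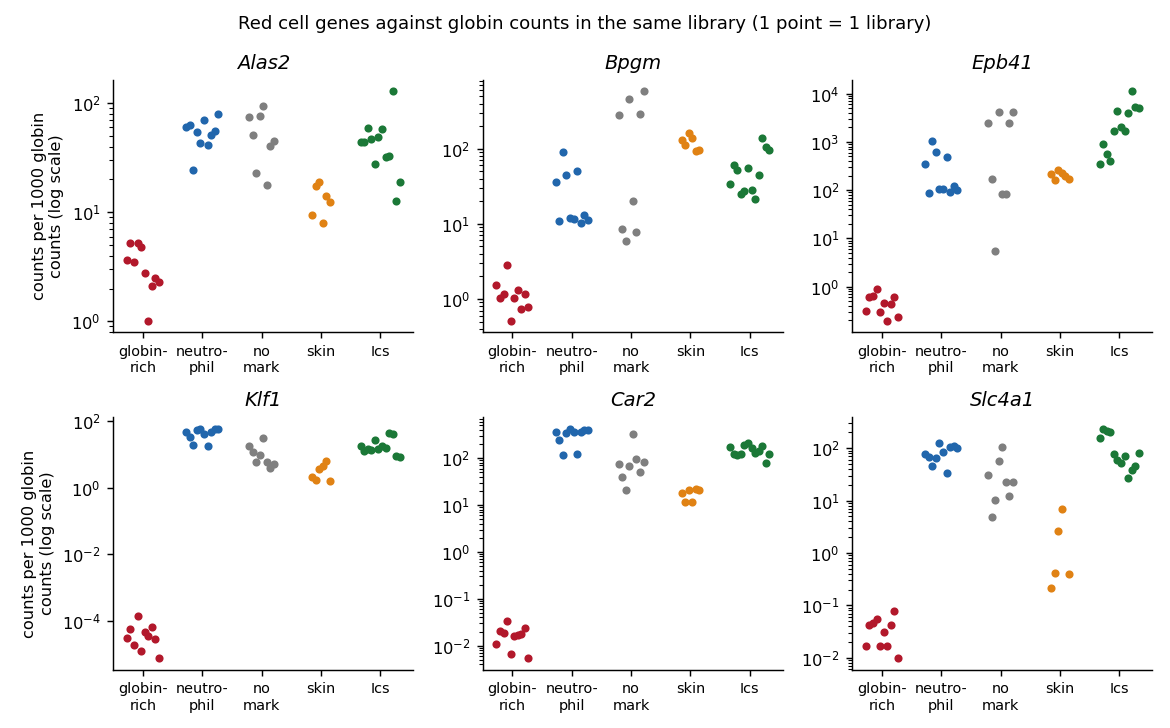
Counts of 6 genes per 1000 globin counts of the same library (log axis), by marker class; 1 skin-marked library with no Slc4a1 count is not drawn. Klf1 and Car2 sit several orders of magnitude lower in the globin-rich libraries than in the others, and Alas2 and Bpgm come closest to the other classes.

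The residual levels in the other libraries had another make-up. In the 10 neutrophil-marked libraries the 4 globins together were at 66.8 to 775 CPM. Klf1 was at 1.27 to 45.6 CPM (median 21.4), Gata1 at 0.849 to 44.4 (30.6), Epor at 0.289 to 32.5 (23.1) and Kel at 0.332 to 91.9 (41.3). Car2, a carbonic anhydrase, was at 7.81 to 328 CPM with a median of 179. Ppox, Slc25a37, Slc25a38, Epb41 and Bpgm hardly varied there, with spans of 1.49, 1.33, 1.71, 1.72 and 1.77 times, while Rhd spanned 49.4 and Kel 277 times. The libraries labelled neutrophil IVIG replicates 1 and 2 and neutrophil PBS replicate 2 were the 3 lowest for Klf1, at 1.27, 5.96 and 2.37 CPM. They were also the 3 lowest for Hba-a1, at 15.8, 33.1 and 31.2 CPM, and for globins in sum. The neutrophil precursor list was lowest in the same 3 libraries too, at 501, 756 and 301 CPM against 827 to 1882 in the other 7, and its part in these levels was not tested. Counts of adult beta globin in this class came to 27.7% to 42.1% from Hbb-bt, above the 3.74% to 15.4% of the globin-rich libraries.

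Among the 8 unmarked libraries, monocyte IVIG replicate 2 held the most globin of all libraries outside the globin-rich ones, 0.577% of counts, with Hbb-bs at 2499.6 CPM, Alas2 at 132 and Klf1 at 33.2. The library labelled monocyte PBS replicate 2 had less Hbb-bs, at 158 CPM, but about as much Slc4a1, at 55.1 against 58.8 CPM, and more Kel, at 61.5 against 9.92 CPM. Epb42 was at 27.1 CPM in the library labelled monocyte PBS replicate 2 and 0.211 CPM in the one labelled monocyte IVIG replicate 2. This sets 1 library against 1, and in the other sort order of the names both would change treatment. The 4 libraries with the least globin (monocyte IVIG replicate 3, monocyte PBS replicates 4 and 5 and blood IVIG replicate 2) had 4.79 to 7.85 CPM of Hbb-bs, 0.0927 to 0.518 of Klf1 and 0.828 to 2.12 of Alas2.

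In the 6 skin-marked libraries the globins were low and even. Hbb-bs was at 77.4 to 126 CPM, a span of 1.63 times, and Klf1 at 0.312 to 1.15 CPM. Slc4a1 was at 0 to 1.18 CPM. Ank1 and Sptb, which muscle also expresses, ranged over 2 to 159.8 and 2.04 to 42.6 CPM, both highest in the library labelled blood PBS replicate 2. Fech was at 86.8 to 141 CPM there, with Alas2 at 1.33 to 4.65 CPM.

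In the Ics experiment most of the listed genes fell. All 32 passed the expression filter, and 14996 genes were tested with edgeR (adjusted p under 0.05 over all of them, called here rose or fell). At 3 h against 0 h 1 rose, 27 fell and 4 did not pass, where 26.9% of all tested genes rose and 27.5% fell. Their median log2 change was -1.96, against -0.06 over all genes. At 6 h against 0 h 1 rose, 29 fell and 2 did not pass (background 29.6% and 30.4%), with a median of -3.02 against -0.06. The filter lets a gene pass through its high group alone. All 4 libraries were over its cutoff of 0.36 CPM at all 3 times for 18 genes, at 0 h only for 10, and in neither pattern for 4. The 10 were Alad, Ank1, Rhag, Kel, Klf1, Gata1, Epor, Tmcc2, Trim58 and Trim10. Of the 18, 13 fell at 3 h and 15 at 6 h.

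**Figure D4:**
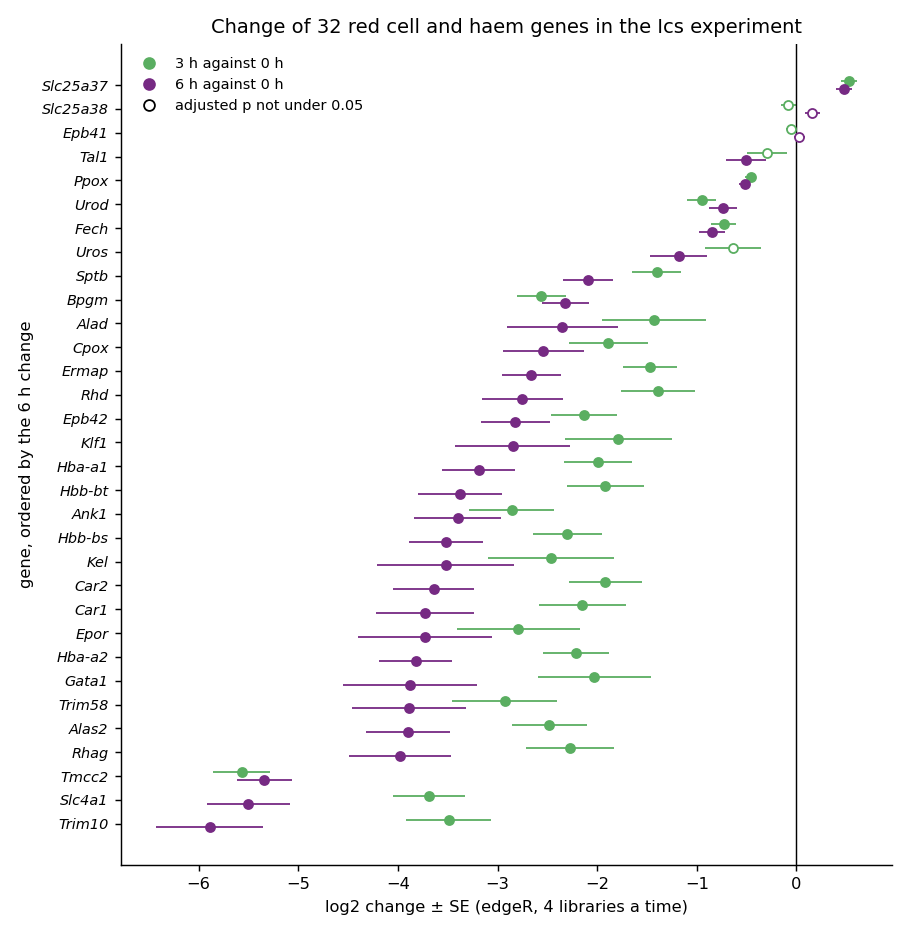
Log2 change ± SE (edgeR, 4 libraries at each time) of 32 genes at 3 h and 6 h against 0 h, ordered by the 6 h change; open points did not pass. Trim10, Slc4a1 and Tmcc2 lie lowest, most other genes lie below -2 at 6 h, and Slc25a37 alone passed on the positive side.

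The globins fell together. Hbb-bs was at 87.2, 32.3, 58 and 79 CPM in m1 to m4 at 0 h (CPM with TMM factors in this experiment), at 16, 6.03, 13.4 and 16.8 at 3 h, and at 7.13, 2.73, 6.34 and 6.19 at 6 h. The lowest 0 h library was above every later one, and m2 was lowest at each time. Its log2 change was -2.30 ± 0.345 (SE, n = 4 and 4) at 3 h, adjusted p = 5.17e-05 in edgeR, and -3.52 ± 0.370 at 6 h, adjusted p = 1.30e-06. Hba-a1 fell too (log2 changes -1.99 and -3.19), as did Hba-a2 (-2.21 and -3.82) and Hbb-bt (-1.92 and -3.38). The globins kept falling between 3 h and 6 h, where all 4 passed (20.3% of all genes fell there), with Hba-a2 changing most at -1.60 ± 0.364 (adjusted p = 0.00277). Alpha counts per beta count were 0.877 to 0.926 at 0 h, 0.951 to 0.977 at 3 h and 0.860 to 1.04 at 6 h. Among alpha counts the share of Hba-a1 was 41.7% to 46.6% at 0 h, 46.7% to 50.8% at 3 h and 52.6% to 59.6% at 6 h, ranges that do not overlap, under the caution on paralogs above.

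Of the 9 haem genes, 6 fell and 1 rose at 3 h, and 7 fell and 1 rose at 6 h (27.5% and 30.4% of all genes fell). Alas2 was at 9.21, 3.52, 8.13 and 8.93 CPM in m1 to m4 at 0 h and at 0.783 to 1.94 at 3 h, with no overlap. Its log2 change was -2.48 at 3 h and -3.90 at 6 h (adjusted p = 1.71e-06), when it was at 0.195 to 0.886 CPM. Cpox went from 19.1, 4.71, 7.24 and 13.9 CPM to 1.76 to 4.64 and then 1.25 to 2.57, a log2 change of -2.54 ± 0.410 at 6 h. Alad, at 1.02 to 3.5 CPM before and over the filter cutoff in all libraries only at 0 h, fell at both times (-1.43 and -2.35). Fech went from 13.2 to 20.2 CPM to 8.91 to 10.4 at 6 h (-0.85 ± 0.128), and Urod from 12.3 to 18 CPM to 8.33 to 10.2 (-0.74 ± 0.142). Ppox was even between libraries, at 105, 111, 110.3 and 107 CPM at 0 h and 74.7 to 76.5 at 6 h, a fall of 0.52 on the log2 scale with adjusted p = 8.16e-07. Uros did not pass at 3 h (-0.64 ± 0.281, adjusted p = 0.0687) and fell at 6 h (-1.18).

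The mitochondrial carriers are described apart. Slc25a37 was at 177, 174, 188 and 195 CPM in m1 to m4 at 0 h, at 265, 261, 294 and 238 at 3 h, and at 256, 262, 290.4 and 219 at 6 h. All later libraries were above all 0 h libraries. It rose by 0.53 ± 0.0815 at 3 h (adjusted p = 7.01e-05) and 0.48 ± 0.0814 at 6 h (adjusted p = 0.000131). Slc25a38 was at 22.4 to 25.8 CPM, 20.4 to 25 and 26.5 to 28.5. It did not pass against 0 h (-0.08 ± 0.0788 and 0.16 ± 0.0783) and rose between 3 h and 6 h by 0.25 ± 0.0787 (adjusted p = 0.0225, with 20.5% of all genes rising). By library totals in place of TMM factors, log2 changes move by about -0.25 at 3 h and -0.17 at 6 h against 0 h. Slc25a37 then still rose, at 0.28 and 0.32, and Slc25a38 fell at 3 h (-0.33, adjusted p = 0.00521 in edgeR) and was at 0.00 at 6 h. With DESeq2 Slc25a38 rose at 6 h against 0 h (0.21, adjusted p = 0.0186).

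Of the 9 membrane genes 8 fell at 3 h and 8 at 6 h (27.5% and 30.4% of all genes fell). Slc4a1 was at 33.4, 18.7, 29.2 and 39.2 CPM in m1 to m4 at 0 h, at 3.23, 0.978, 1.77 and 3.32 at 3 h, and at 0.48, 0.248, 0.701 and 1.24 at 6 h. The groups of 0 h and 3 h did not overlap. Its log2 change was -3.69 ± 0.364 at 3 h (adjusted p = 7.37e-07) and -5.50 ± 0.420 at 6 h (adjusted p = 4.40e-08). Counts of Slc4a1 per 1000 globin counts went from 159 to 237 at 0 h to 53.3 to 76.5 at 3 h, and to 27.1 to 82.8 at 6 h, which overlaps the 3 h range. Sptb was at 47.7, 62.2, 68.9 and 52.3 CPM at 0 h and went to 12.1 to 28.2 and then 7.59 to 17.1, with m1 lowest at 0 h. Its log2 changes were -1.40 and -2.09. Ermap, at 7.79 to 14.8 CPM before, fell at both times (-1.47 and -2.66). Rhag, Kel, Ank1, Epb42 and Rhd started under 7 CPM and fell at 6 h, with log2 changes from -2.75 to -3.98. Of these, Rhag, Kel and Ank1 met the filter cutoff in all libraries only at 0 h. Epb41 did not pass, with 71.7 to 77.4 CPM at 0 h, 69.3 to 76.3 at 3 h and 71.5 to 78.3 at 6 h. Its log2 changes were -0.05 ± 0.052 and 0.03 ± 0.0519, and by library totals they were -0.30 (adjusted p = 0.000183) and -0.13 (adjusted p = 0.0336).

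Of the 4 regulators 3 fell at 3 h and 4 at 6 h (27.5% and 30.4% of all genes fell). Gata1, Klf1 and Epor met the filter cutoff in all 4 libraries only at 0 h, where they were high, and their calls carry that limit. Tal1 met it at all 3 times. Tal1, a partner of GATA1, was at 12, 7.61, 9.71 and 12.1 CPM at 0 h and 5.99 to 7.94 at 6 h, ranges that overlap. It did not pass at 3 h (-0.30 ± 0.200) and fell at 6 h (-0.51, adjusted p = 0.0407 in edgeR). That call did not hold in DESeq2 (-0.46, adjusted p = 0.0583) or with no expression filter (-0.47). Gata1 (0.717 to 3.16 CPM at 0 h), Klf1 (0.956 to 3.88) and Epor (1.16 to 3.34) fell at 6 h, with log2 changes of -3.88, -2.85 and -3.73. Behind the Klf1 values stood 123, 28, 56 and 71 counts at 0 h and 22, 8, 3 and 3 at 6 h, so its 6 h level is held by few counts.

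All 6 enzymes and maturation genes fell at both times (27.5% and 30.4% of all genes fell). Tmcc2, Trim10 and Trim58 met the filter cutoff in all 4 libraries only at 0 h, where they were high, and their calls carry that limit. Tmcc2, a coiled-coil protein of membranes, was at 19, 19.5, 24.5 and 20.4 CPM at 0 h, at 0.309 to 0.648 at 3 h and at 0.255 to 0.817 at 6 h. Its log2 change of -5.57 ± 0.283 at 3 h (adjusted p = 6.03e-10 in edgeR) was the largest of the list at that time. The 3 h level of Tmcc2 rests on 11, 10, 15 and 8 counts in m1 to m4. Between 3 h and 6 h it did not pass (0.22 ± 0.365). Car2 was at 37.3, 9.56, 15.9 and 22.8 CPM at 0 h and went to 3.29 to 7.94 and 1.17 to 2.54, a log2 change of -1.92 ± 0.366 and then -3.64 ± 0.408. Car1 was at 13.3, 2.42, 5.59 and 7.39 CPM and fell at both times (-2.15 and -3.73). Bpgm was at 7.23, 4.71, 7.14 and 4.71 CPM at 0 h and at 0.9 to 1.15 at 3 h. It fell at 3 h (-2.56), and like Tmcc2 its change from 3 h to 6 h did not pass (0.24 ± 0.256). Trim10, at 2.22 to 5.4 CPM before, fell at both times (-3.49 and -5.89), and so did Trim58 (-2.93 and -3.89), at 2.02 to 2.17 CPM before.

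**Figure D5:**
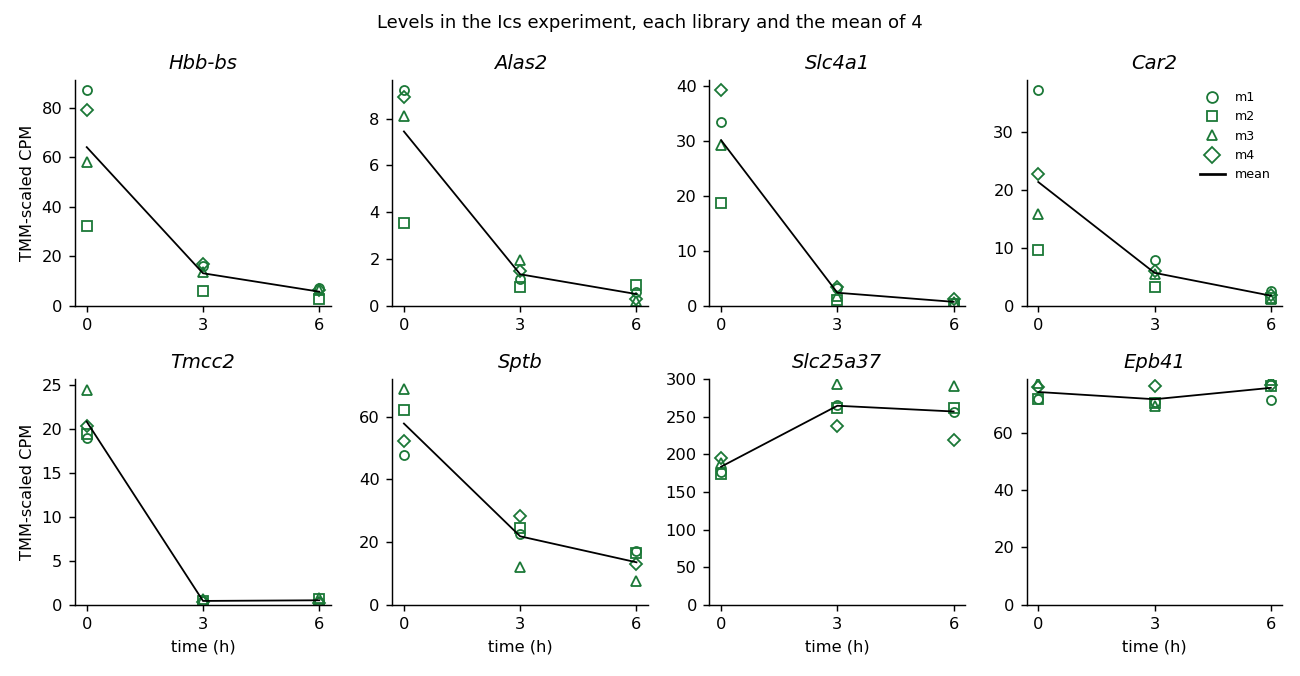
TMM-scaled CPM of 8 genes in each Ics library against time (h), with a symbol for each title number and a line through the mean of 4; axes start at 0. Tmcc2 reaches its low level by 3 h, Hbb-bs and Slc4a1 go on falling to 6 h, Slc25a37 is higher at 3 h and 6 h, and Epb41 stays between 69.3 and 78.3 CPM.

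Between 3 h and 6 h, 13 of the 32 fell, 1 rose and 18 did not pass (background 20.3% and 20.5%), with a median of -0.95 against -0.03 over all genes. The globins made up 4 of the 13, the membrane genes 5, the enzymes 3 and the haem genes 1, which was Alas2 at -1.42 ± 0.446. Trim10 changed most, at -2.40 ± 0.657 (adjusted p = 0.00933 in edgeR), but on few counts. It had 8, 3, 8 and 17 counts in m1 to m4 at 3 h and 2, 0, 2 and 3 at 6 h. Sptb passed in edgeR (-0.69 ± 0.252, adjusted p = 0.0423) but not with DESeq2 (-0.67) or by library totals (-0.60). At an adjusted p under 0.01 the falls and the rise together came to 5.

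The 4 libraries of 0 h differed among themselves in these genes. Summed globins were at 210.4, 78.9, 136 and 190.0 CPM in m1 to m4, a span of 2.67 times. Of the 32 genes, 26 were lowest in m2 and 21 highest in m1. A span of at least 2 times was seen for 18 genes, with Car1 the widest at 5.48 times, and a span under 1.5 times for 8: Ppox, Trim58, Epb41, Slc25a37, Slc25a38, Tmcc2, Sptb and Urod. Of these 8, Ppox, Trim58, Tmcc2, Sptb and Urod fell at both 3 h and 6 h, without the wide spread at 0 h of most of the list. Replicate m2 was also the lowest for summed globins at 3 h (16 CPM, others 33.4 to 46) and at 6 h (6.77 CPM, others 15 to 17.7).

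Marker lists of other cells were summed in the same libraries. The neutrophil list summed to 91524 to 100257 CPM at 0 h, 66949 to 81000.5 at 3 h and 53734 to 59981 at 6 h, and of its 9 genes 3 fell and 1 rose at 3 h and 7 fell at 6 h (27.5% and 30.4% of all genes fell at these times). The platelet list went from 152 to 158 CPM to 28.9 to 38.1 at 3 h and 44.2 to 57.3 at 6 h. Of its 7 genes 6 fell and 1 did not pass at both times. Itgb3 made up most of the sum, at 101 to 108 CPM with TMM factors at 0 h, 23 to 26.7 at 3 h and 35.3 to 46.6 at 6 h. Between 3 h and 6 h Itgb3 rose (0.70), Pf4 (-3.28, from at most 0.482 CPM) and Gp1ba (-0.80) fell and 4 did not pass. Over all genes 20.5% rose and 20.3% fell there. The neutrophil precursor list went from 148 to 340.2 CPM to 39 to 109.9 and 8.93 to 30.9, and all 4 of its genes fell at both times. The proliferation list went from 515 to 634 CPM to 319 to 413 and 233 to 330.2. The monocyte list went from 777 to 874 CPM to 903 to 948 and 902 to 967, and its genes moved in both directions. Of its 6 genes 3 rose and 3 fell at 3 h, and 2 rose and 3 fell at 6 h (26.9% and 29.6% of all genes rose). Adgre1 had log2 changes of 2.55 and 2.80 and Csf1r of 1.65 and 1.86. Ccr2 (-2.01 and -2.46), F13a1 (-2.32 and -2.54) and Ly6c2 (-0.48 and -1.16) fell. The lymphocyte list went from 22.4 to 28.9 CPM to 21.8 to 27.6 and 13.1 to 16.4. The skin list went from 16 to 20.3 CPM to 13.4 to 17.8 and 30.4 to 41.8, with Col1a1 at 1.25 at 6 h, and Krt5, Krt14 and Krt1 were at 0 in all 12 libraries. The part of these lists in the changes of the red cell genes was not tested.

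Other genes of the pathway, from a list of 42 of which 41 are in the table and 36 were tested, moved in both directions. At 3 h 6 rose and 20 fell (26.9% and 27.5% of all genes), with a median log2 change of -0.77. At 6 h 6 rose and 26 fell (29.6% and 30.4% of all genes), with a median of -1.09. Among the largest falls at 3 h were Add2, beta adducin, at -3.05 ± 0.632, and Dmtn, dematin, at -2.50 ± 0.522. At 6 h they included Tspo2, an erythroid relative of the mitochondrial translocator protein, at -4.67 ± 0.646, and Dmtn at -4.39 ± 0.627. These falls end near 0 CPM. Add2 went from 1.02 to 5.11 CPM at 0 h to 0 to 0.482 at 3 h. At 6 h Tspo2 was at 0 to 0.0685 CPM (0.546 to 1.39 at 0 h) and Dmtn at 0 to 0.137 (0.82 to 2.87 at 0 h). The filter lets such genes pass through their 0 h level alone, and their changes carry that limit. Alas1, the housekeeping form of the enzyme that Alas2 provides in red cells, rose by 2.34 ± 0.126 at 3 h, from 116, 104, 89.9 and 118 CPM to 493 to 582 CPM. All 4 libraries of 3 h were above all of 0 h. Alas1 therefore moved opposite to Alas2 in the same libraries. At 6 h the largest rise was Blvrb, biliverdin reductase B, at 3.78 ± 0.198, to 61.9 to 106 CPM. Between 3 h and 6 h 6 rose and 14 fell (20.5% and 20.3% of all genes), with Tspo2 (-3.08), Gfi1b (-2.57) and Aqp1 (-2.04) lowest and Blvrb (2.46) highest. At 3 h Tspo2 was already at 0.0864 to 0.52 CPM, and Gfi1b went from 0.117 to 1.54 CPM to 0.0364 to 0.284. The changes of Tspo2 and Gfi1b thus rest on low levels.

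The treatment comparison asked whether IVIG changed the listed genes against PBS within each tissue as labelled. No listed gene passed in blood (29 tested), neutrophils (32), monocytes (32) or skin (27), and no gene of the whole table did, so the background is 0% in each. With an unadjusted p under 0.05 there were 0, 0, 1 and 0 listed genes in edgeR, among 81, 73, 286 and 157 genes of all, and DESeq2 also called 0 listed genes in each tissue. These groups hold libraries of mixed marker class, and the errors are wide: Hbb-bs in blood had a log2 difference of 0.57 ± 3.16 (IVIG minus PBS). The globin share of blood libraries was 92.6%, 0.00284%, 0.0146%, 89.2% and 93.9% in IVIG replicates 1 to 5 and 0.0204%, 0.0264%, 89.4%, 92% and 93.3% in PBS replicates 1 to 5. The groups overlap. The means were 55.1% ± 50.4 and 55% ± 50.2 (SD, n = 5 each), a difference of 0.196 percentage points with an exact two-sided permutation p = 0.905 (smallest possible 0.00794).

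Within the globin-rich blood libraries alone, 3 of each, the share was 91.9% ± 2.46 with IVIG and 91.6% ± 1.99 with PBS (exact permutation p = 0.8, smallest possible 0.1). With the names in the other sort order, the share was 94.8% ± 3.5 with IVIG and 92.8% ± 2.67 with PBS (n = 5 each, exact permutation p = 0.333). In that order no listed gene passed in any of the 4 tissues, and no gene of all did. In blood 13 of the 28 tested had an unadjusted p under 0.05 (46.4%), against 530 of 9457 genes (5.6%), with the smallest adjusted p at 0.746 in edgeR. Of those 28 genes 27 were higher with IVIG, with a median log2 difference of 0.96, among them Car2 at 1.93 ± 0.534. The same unadjusted limit was met by 0 of 32 listed genes in neutrophils (1.89% of all genes) and 4 of 30 in monocytes (13.3%, against 4.81%). In skin 0 of 25 met it, against 12.2% of all genes. As 22 names change treatment in that order, this is given as a description of the alternative.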

How the data were processed

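Poly(A)-selected RNA was sequenced from 46 mouse libraries, per the labels' protocols. The deposited table holds estimated counts per gene (length-scaled TPM). They were made with kallisto 0.46.1 on GRCm38, per the submitters' processing notes, and the step from transcripts to genes is not given in the sources used here. Estimated counts were rounded to whole numbers for the tests. CPM were taken per library, over all counts or without the 4 globin genes. Ics times and IVIG against PBS within each labelled tissue were fitted with edgeR 4.0.16 in R 4.3.3 on the libraries compared (quasi-likelihood F test, TMM factors, filterByExpr with a minimum count of 10, p adjusted by Benjamini-Hochberg over each comparison's tested genes, limit 0.05). The code was tested on simulated data. DESeq2 1.42.0, library totals, TMMwsp factors, no filter, removed globin counts, a replicate block and leaving out each library were alternatives. Globin shares were compared by an exact permutation test in scipy 1.17.1. Gene positions are from GENCODE on GRCm38, and promoters from RefSeq on GRCm38.p6. Every listed gene is accounted for by role, and genes of the second pathway list are named by the 3 largest falls and the largest rise, except where a result is not reported here. The genes and lists were chosen with earlier results of these data known. A treatment field in the labels that disagrees with the condition field was not used.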

Additional observations from a re-analysis of the deposited data

Results flagged for a closer look

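In all, 68 sets of values were examined for a value far from the rest of its set. They were the globin shares of each labelled group of at least 4 libraries, and 20 listed genes at each Ics time. The sets of genes share the same 12 Ics libraries, so the sets are not independent. In 2 of the 68 sets 1 library stood apart, and chance alone flags about 1 set in 20. Both were globin shares. The library labelled neutrophil IVIG replicate 5 had 98.3% of its counts in the 4 globin genes, where the other 4 of its group had 0.00668% to 0.0766%. The library labelled neutrophil PBS replicate 1 had 96.3%, where the other 4 had 0.013% to 0.0775%. Both have neutrophil marker sums of 29.7 and 12.6 CPM, against 89653 to 156342 CPM in the neutrophil-marked libraries. In the other sort order of the names both would be blood libraries.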

How the results depend on the processing

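The counts of listed genes that passed in the Ics experiment were 28, 30 and 14 (3 h against 0 h, 6 h against 0 h, 6 h against 3 h). They were 28, 30 and 14 with DESeq2, 32, 31 and 14 by library totals, 24, 26 and 10 with the globin counts removed (which takes the 4 globins out of the list), and 27 to 29, 29 to 31 and 10 to 16 when 1 library was left out. At an adjusted p under 0.01 the last count was 5. With the title number as a replicate block they were 28, 30 and 17. Same-numbered libraries deviated together with r of 0.083 to 0.242 (10 of 12 pairs over 0.1), others with r of -0.158 to 0.041, and 12 of 12 libraries correlated best with their own number. The labels do not say what a number marks, so this is a hint from the data. Small changes turned sign: by library totals Epb41 at 6 h against 0 h (-0.13), Ppox (0.03) and Slc25a37 (0.04) at 6 h against 3 h. Without Ics 3 h replicate 3, Ppox (0.01) and Slc25a37 (0.03) turned at 6 h against 3 h, as did Slc25a37 without Ics 6 h replicate 4 (0.03) and Tmcc2 without Ics 6 h replicate 3 (-0.07). Over all 6 h against 3 h fits with 1 library left out, Ppox ran from -0.08 to 0.01, Slc25a37 from -0.11 to 0.03 and Tmcc2 from -0.07 to 0.48. Sptb lost its 6 h against 3 h call with DESeq2 (-0.67), library totals (-0.60) and TMMwsp (-0.67), and Slc25a38 gained one at 6 h against 0 h with DESeq2 (0.21). The cause of these turns was not tested. IVIG against PBS called 0 listed genes in each tissue under each alternative run. The blood globin share difference ran from -13.5 to 14 percentage points when 1 library was left out, with -9.18, -13.5 and -13.5, -8.31 and -9.5 on the negative side. A planned re-sorting of names by leading number was not run as worded, and the other sort order took its place.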

Other observations

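Among the neutrophil-marked libraries, the 3 lowest in Klf1 carry the title prefixes S5, S3 and S2 (neutrophil IVIG replicates 1 and 2 and neutrophil PBS replicate 2). In the other sort order their prefixes would be S5, S2 and S5, and the other 7 libraries would all carry S3. Klf1 was at 1.27 to 5.96 CPM in these 3 and at 9.28 to 45.6 CPM in the other 7, and Gata1 at 0.849 to 5.43 and 11.7 to 44.4 CPM. The labels do not say what the prefix stands for.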
